A study of Homo sapiens with 12 samples.

Results

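The comparison is between LNCaP cells carrying a short hairpin RNA (shRNA) against TMEFF2 and LNCaP cells carrying a scrambled shRNA, both treated with the androgen dihydrotestosterone (DHT). It uses 6 of the 12 RNA-seq libraries of the study, the 3 labelled sh_TMEFF2 and the 3 labelled sh_scramble among those that received 10 nM DHT for 24 h. All groups were LNCaP, an androgen-responsive human prostate cancer line, transduced with lentiviral pLKO.1 vectors that drive the hairpin from a U6 promoter and carry puromycin resistance, and all were kept for 24 h in charcoal-stripped, hormone-depleted medium before treatment. The other 6 libraries, 3 of each line, received the ethanol vehicle and are called −DHT here. The sources used here describe the repeats as independent treatments from separate transductions, without naming which library came from which, and do not name the TMEFF2 hairpin of the sequenced cells. Each line is therefore a pool of transduced cells, and differences between transductions and differences between hairpins cannot be told apart.

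TMEFF2 is a transmembrane protein with EGF-like and follistatin domains that is found mainly in brain and prostate. In prostate cells androgens raise the transcription of genes for secreted proteases, membrane transporters and lipid enzymes, and lower the transcription of other genes. Luminal prostate cells are secretory, and androgens also raise the machinery with which they fold, modify and export proteins. LNCaP cells divide slowly in hormone-depleted medium and faster when androgen returns.

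The target sites of the hairpins shTMEFF2-1 and shTMEFF2-2 are shown because they define what the vectors were built to bind. A further TMEFF2 hairpin of the study did not appreciably silence TMEFF2 in its Western blot, and its target site is not shown. In the lines below the capitals mark the 7 bases that pair with bases 2 to 8 of the guide strand, its seed.
shTMEFF2-1: cgtctgtcagttcAAGTGCAa
shTMEFF2-2: gcgcttctgatggGAAATCTt
Among the GENCODE transcripts on GRCh38, exact matches to both were found only in transcripts of TMEFF2 (ENSG00000144339, minus strand of chromosome 2). In transcript ENST00000272771 the first target crosses the junction of exon 2 (chr2:192191880-192191895) and exon 3 (chr2:192184479-192184483), and the second lies in exon 6 (chr2:191999141-191999161). The 7-base seed match of the first occurred in the 3′ untranslated region of 12.4% of 13474 tested genes with such a region, of 13.6% of those called lower and of 15.3% of those called higher. For the second the shares were 16.1%, 20.2% and 19.5%. Called genes had longer 3′ untranslated regions (medians of 1566 bases for lower and 1696 for higher against 1325 for all), and neither share was tested.

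Values are estimated counts per gene, scaled by the size of the library (CPM), and lists of 3 values follow replicate numbers 1 to 3. Totals were 19450866 to 22612046 counts per library, and the 10 most abundant genes took 3.996% to 5.461% of a library. A call needed a difference of 1.5-fold or more and an adjusted p no higher than 0.05 in edgeR's quasi-likelihood test over 15419 genes, from which every adjusted p below comes. Fold changes are sh_TMEFF2 against sh_scramble on the log2 scale with their standard error (SE). In the 6 DHT libraries the first principal component held 41.6% of the variance and separated the lines. All 12 markers of luminal prostate cells were measured, and their summed level was 15500 to 17300 CPM in sh_scramble +DHT and 6090 to 7590 CPM in sh_TMEFF2 +DHT. The basal markers summed to 13.6 to 18.6 against 13.4 to 21.4 CPM, with KRT5 at 0 in all libraries, and the neuroendocrine markers to 41.7 to 76.2 against 43.8 to 54.3 CPM, with INSM1 at 0. Markers of leukocytes summed to 9.72 to 12.6 against 11.1 to 12.3 CPM (6 of 8 under 1 CPM, CD3D at 0), of fibroblasts or smooth muscle to 21 to 27.4 against 30.5 to 32.0 CPM and of endothelium to 13.2 to 14.6 against 19.8 to 29.5 CPM. Of these, KRT14 was called lower and the collagen gene COL3A1, the endothelial gene VWF and the leukocyte gene PTPRC higher, PTPRC rising from 3.35 to 5.26 CPM. The part of these marker differences in the results was not tested. Fewer cells of a type and less RNA per cell cannot be told apart in such bulk samples.

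With DHT, 467 genes (3.03% of those tested) were called higher and 577 (3.74%) lower in sh_TMEFF2, 1044 in all (6.77%). Of these, 218 higher and 247 lower genes differed at least 2-fold, and 21 and 16 at least 8-fold. Without DHT the same comparison called 46 genes higher (0.298%) and 42 lower (0.272%). These smaller counts were less stable, at 97 and 83 with DESeq2 and 14 to 73 and 17 to 44 when a library was left out. The 14 came without sh_scramble −DHT replicate 1 and the 17 without sh_TMEFF2 −DHT replicate 2, and leaving out any of the 6 −DHT libraries moved a count by over 1.5 times. These 2 comparisons share no libraries. With library size alone in place of the TMM scaling the calls with DHT were 624 higher and 470 lower, a share of 57.0% higher against 44.7%, and the median of all genes moved from 0.00408 to 0.0621. The libraries of the 2 lines did not overlap for 454 of the 467 and 569 of the 577, against 15.5% of all tested genes lying above and 17% lying below.

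**Figure D1:**
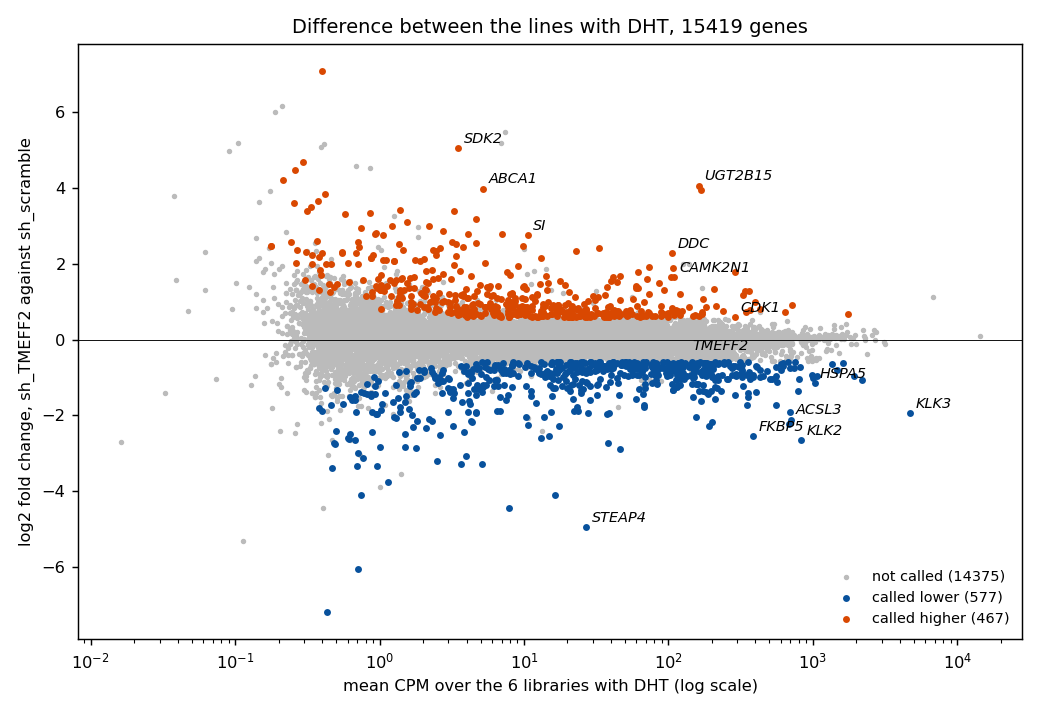
Each point is a gene, with its mean level over the 6 libraries with DHT on a logarithmic horizontal axis (CPM) and its log2 fold change, sh_TMEFF2 against sh_scramble, on the vertical axis. Orange marks the 467 genes called higher and blue the 577 called lower; KLK3, KLK2, FKBP5 and ACSL3 lie low at the abundant end, and UGT2B15 and DDC lie high.

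TMEFF2 itself was measured at 173, 117 and 169 CPM in the sh_scramble libraries and at 142, 90.1 and 114 CPM in the sh_TMEFF2 libraries with DHT. The mean was lower in sh_TMEFF2, but the libraries overlapped and the gene did not pass the test (log2 fold change −0.41, SE 0.25, adjusted p = 0.304). Without DHT the means were 85.0 CPM in sh_scramble and 63.2 CPM in sh_TMEFF2, and the gene was not called either (−0.43, SE 0.25, adjusted p = 0.503). The paper reports silencing of TMEFF2 in LNCaP cells by Western blot, a protein assay, with both hairpins. It also has a supplementary figure of TMEFF2 mRNA levels for the silencing hairpins and the scrambled control, with and without DHT. The values of that figure were not available here, so they could not be set beside these counts. Neither assay was analysed here. CAVIN2-AS1 overlaps TMEFF2 on the other strand. Among 23 tested genes of the steroid receptors, their pioneer factors, coactivators, corepressors and chaperones the median change was 0.03. Of these genes 1 (4.35%) was called, lower in sh_TMEFF2, near the 3.74% of all genes called lower. FOXA1, a pioneer factor that opens chromatin in prostate cells, stood at 401, 383 and 391 CPM against 403, 370.4 and 406 CPM (0.00, SE 0.06, adjusted p = 0.975). HOXB13, the prostate homeobox factor, changed by −0.06 (SE 0.07, adjusted p = 0.678). The called member was GRHL2, an epithelial transcription factor, at 193 ± 11.9 CPM in sh_scramble and 125 ± 20.7 CPM in sh_TMEFF2 (SD, n = 3; −0.63, adjusted p = 0.0125). It was not called with only the second deposited column of each library (−0.19, adjusted p = 0.778).

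**Figure D2:**
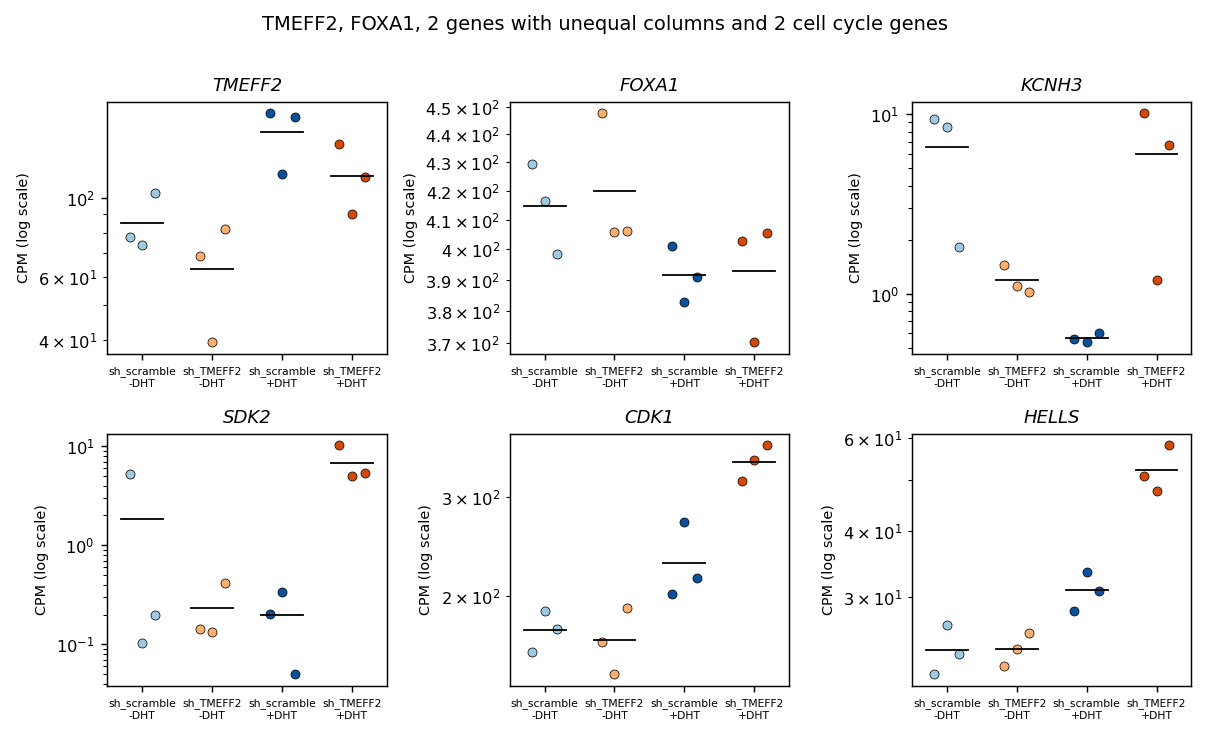
Each panel shows the level of a gene (CPM, logarithmic axis) in the 12 libraries by group, with a bar at the mean of 3 libraries. TMEFF2 and FOXA1 overlap between the lines with DHT, KCNH3 and SDK2 spread widely within some groups, and CDK1 and HELLS lie highest in sh_TMEFF2 +DHT.

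All 35 androgen-induced genes passed the filter on low counts, all 35 had a negative fold change with DHT, and 33 of them were called lower, against 3.74% of all genes. Their median was −1.46 on the log2 scale, beside 0.00 over all genes. Without DHT 5 of the 35 were called lower and the median was −0.14. The 2 that were not called with DHT were AZGP1, a secreted zinc-binding glycoprotein (−0.45, SE 0.15, adjusted p = 0.057), and TSC22D3, a glucocorticoid- and androgen-induced leucine zipper protein (−0.26, SE 0.13, adjusted p = 0.199).

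The kallikreins are secreted serine proteases of seminal fluid that lie side by side on chromosome 19. KLK3, which encodes prostate-specific antigen, was at 7529, 7219 and 7737 CPM in sh_scramble and at 1452, 1921 and 2474 CPM in sh_TMEFF2 with DHT. The lines were far apart, with a log2 fold change of −1.94 (SE 0.22, adjusted p = 8.28e-05). KLK2, a close relative of KLK3, was at 1517, 1272 and 1512 CPM against 182, 218 and 283 CPM (−2.65, SE 0.23, adjusted p = 1.06e-05). KLK4, another androgen-driven member, was at 254, 208 and 201 CPM against 128, 131 and 119 CPM (−0.81, SE 0.13, adjusted p = 0.00126). KLK2 and KLK3 are near-identical over stretches, so the estimated counts could split reads between them. All 3 were also lower without DHT, where KLK3 was at 1925 CPM in sh_scramble and 356 CPM in sh_TMEFF2 on average and KLK2 at 251 and 32.7 CPM, and for none of the 3 did the difference between the fold changes with and without DHT pass its test. That difference was 0.49 for KLK3 (SE 0.30, adjusted p = 0.459), 0.29 for KLK2 (SE 0.31, adjusted p = 0.706) and 0.23 for KLK4 (SE 0.19, adjusted p = 0.616).

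Parts of the KLK3 and KLK2 promoters are shown because these genes had the largest fold changes of the 3 kallikreins of the list and because an androgen response element of this region is known for KLK3. The windows are from the RefSeq promoter table on GRCh38.p14, plus strand, at chr19:50854706-50854805 for KLK3 and chr19:50873224-50873323 for KLK2. The capitals mark a run of 14 bases that both share and that no other of the 27305 promoters holds on either strand. It starts 169 bases before the KLK3 start site and 175 bases before that of KLK2. The windows share a longer run after the capitals, which therefore do not mark their longest match. The base before the capitals is a in KLK3 and g in KLK2, so only KLK3 holds the letters AGAACA there.
KLK3: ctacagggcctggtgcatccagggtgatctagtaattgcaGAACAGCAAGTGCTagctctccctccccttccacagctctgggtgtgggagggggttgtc
KLK2: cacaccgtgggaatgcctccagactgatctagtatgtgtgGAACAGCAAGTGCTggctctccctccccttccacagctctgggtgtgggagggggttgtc
The half-site AGAACA, searched on both strands from 250 bases before to 50 after each start, was held by 9.35% of 11010 tested genes matched to the table, by 8.67% of the 427 called lower, by 12.3% of the 333 called higher and by 3 of 26 androgen-induced genes (11.5%). The full palindrome, AGAACA and TGTTCT 3 bases apart, was found in 1 of the 27305 promoters and in none of the tested genes.

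Membrane proteins of the androgen-induced list showed the widest range. STEAP4, a metalloreductase of the cell surface on chromosome 7 (chr7:88270892-88306894, minus strand), was at 42.5, 62.7 and 51.2 CPM in sh_scramble and at 0.926, 1.69 and 2.36 CPM in sh_TMEFF2 with DHT. The lowest sh_scramble library stood well above the highest sh_TMEFF2 library, and the log2 fold change was −4.97 (SE 0.26, adjusted p = 5.02e-07), the lowest of the list. In the −DHT groups STEAP4 was at 1.33 and 1.12 CPM, and the difference of the fold changes was −4.72 (SE 0.43, adjusted p = 9.5e-05). TMPRSS2, the transmembrane serine protease whose promoter is often fused to ETS genes in prostate cancer, was at 800.0, 826 and 1735 CPM against 110.4, 162 and 449 CPM. Replicate 3 was the highest in each line for that gene, the lines still did not overlap, and the change was −2.22 (SE 0.48, adjusted p = 0.00755). SLC45A3, the prostate antigen prostein, was at 545, 467 and 591 CPM against 137, 169 and 176 CPM (−1.73, SE 0.11, adjusted p = 1.7e-06). ABCC4, a transporter that exports cyclic nucleotides and drugs, changed by −1.74 (SE 0.13, adjusted p = 4.01e-06), and LIFR, the receptor of leukaemia inhibitory factor, by −1.78 (SE 0.09, adjusted p = 4.27e-07). LIFR lay between 96.6 and 111 CPM in sh_scramble and between 29.0 and 31.1 CPM in sh_TMEFF2. TRPM8, a cold-sensing cation channel, was lower with DHT (−1.41, adjusted p = 0.000161) and without (−1.07, adjusted p = 0.0367).

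All 9 chaperones, kinases and signalling regulators of the list were called lower with DHT, none was called without DHT, and all 9 had a lower fold change with DHT than without by the test of the difference. FKBP5, a cochaperone of steroid receptors (chr6:35573585-35728583, minus strand), was at 585, 744 and 653 CPM in sh_scramble and 86.1, 114 and 136 CPM in sh_TMEFF2. The −DHT groups stood at 63.5 and 60.7 CPM, below all +DHT libraries of both lines (−2.56 with DHT, SE 0.15, adjusted p = 9.01e-07; difference −2.50, SE 0.21, adjusted p = 8.37e-05). NDRG1, a stress- and differentiation-related protein, was at 336, 300.0 and 339.9 CPM against 78.8, 62.7 and 75.4 CPM (−2.17, SE 0.22, adjusted p = 3.78e-05). PMEPA1, a feedback inhibitor of TGF-beta signalling, changed by −2.06 (SE 0.17), CAMKK2, a calcium-dependent kinase upstream of AMPK, by −1.28 (SE 0.13) and SGK1, a serum- and steroid-regulated kinase, by −1.46 (SE 0.19). SGK1 is a low gene here, at 6.86 ± 0.759 CPM in sh_scramble and 2.49 ± 0.416 CPM in sh_TMEFF2 (SD, n = 3).

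Among 7 transcription factors and cofactors 6 were called lower. MAF, a basic leucine zipper factor, was at 77.3, 90.5 and 75.0 CPM against 6.85, 13.9 and 11.7 CPM. The −DHT group means were 11.1 CPM in sh_scramble and 11.2 CPM in sh_TMEFF2 (−2.90, SE 0.26, adjusted p = 1.28e-05). ELL2, an elongation factor of RNA polymerase II, changed by −1.52 (SE 0.18) and ZBTB10, a zinc finger repressor, by −1.17 (SE 0.08).

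All 7 metabolic enzymes of the list were called lower. ACSL3, which activates long-chain fatty acids for lipid droplets, was at 1185, 1231 and 1007 CPM against 221, 279.8 and 286 CPM (−2.12, SE 0.12, adjusted p = 5.23e-07). HPGD, which inactivates prostaglandins, was at 27.5, 29.6 and 30.5 CPM against 3.24, 4.97 and 9.79 CPM (−2.28, SE 0.31, adjusted p = 0.000303). Of the 2 nuclear cell cycle proteins of the list, the kinetochore protein CENPN changed by −1.58 (SE 0.13) and the condensin subunit NCAPD3 by −0.71 (SE 0.13), both called lower.

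**Figure D3:**
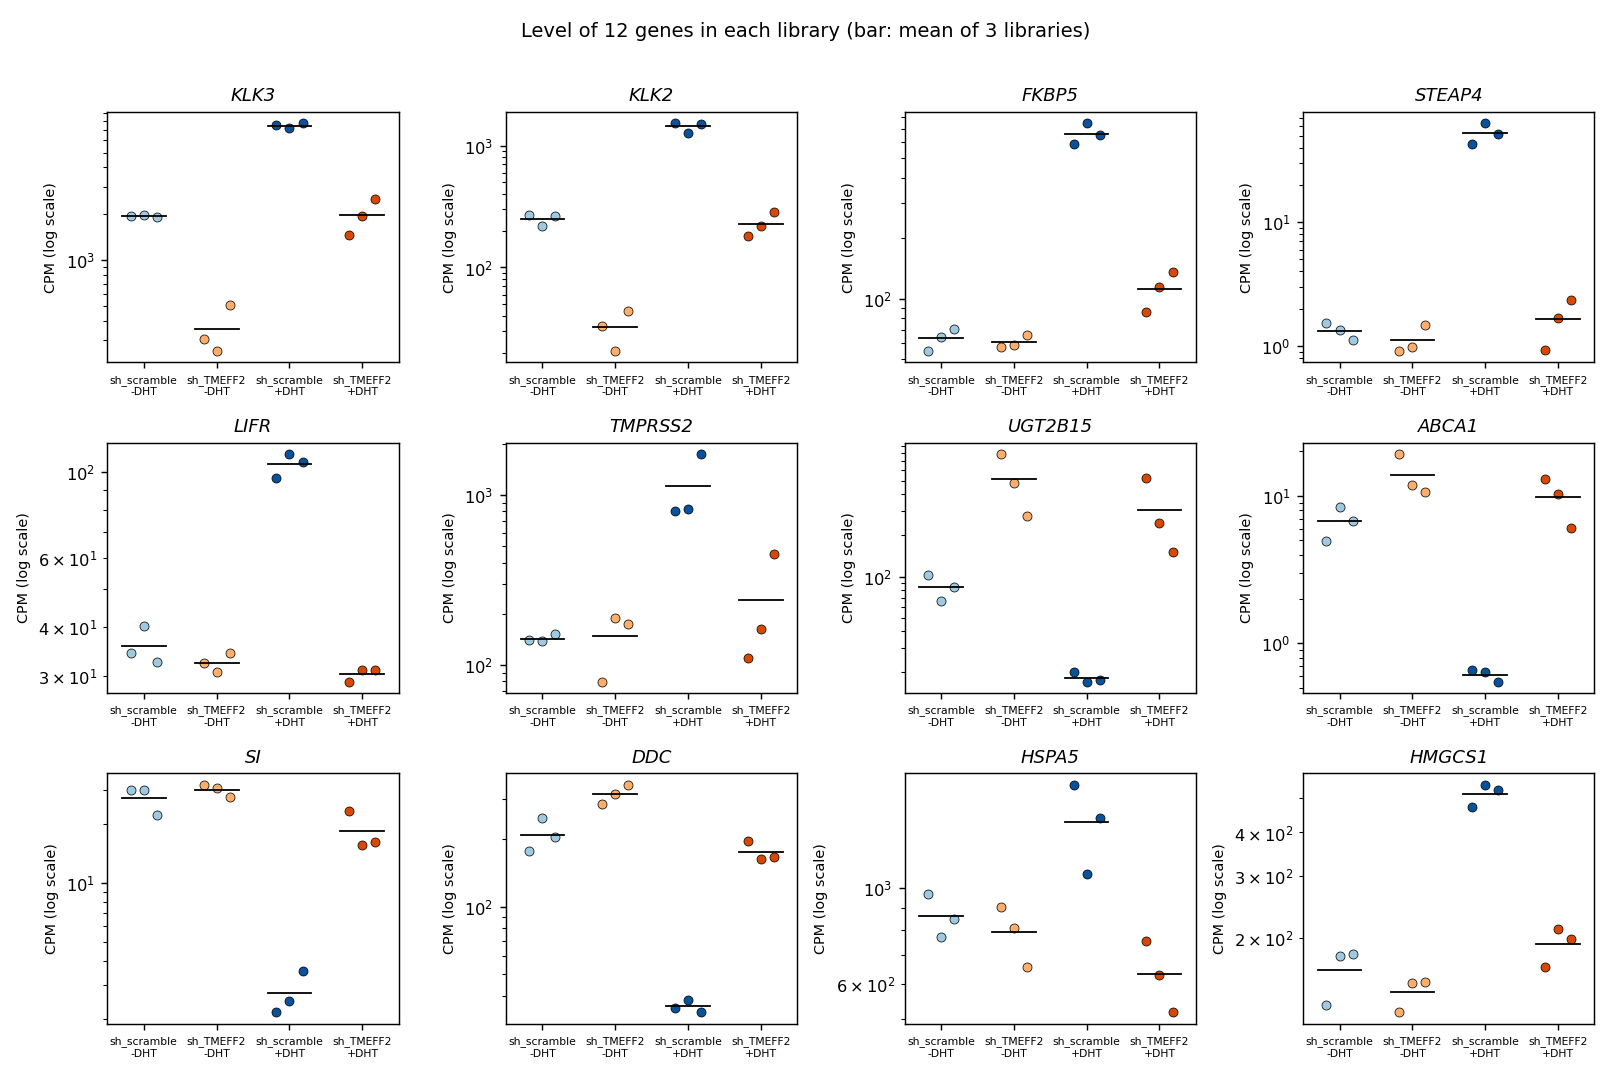
Each panel shows a gene's level (CPM, logarithmic axis) in the 3 libraries of each of the 4 groups, with a bar at their mean. In sh_scramble +DHT KLK3, KLK2, FKBP5, STEAP4, LIFR, TMPRSS2, HSPA5 and HMGCS1 are at their highest and UGT2B15, ABCA1, SI and DDC at their lowest, and the sh_TMEFF2 +DHT libraries lie apart from them in every panel.

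Of 12 androgen-repressed genes, all tested, 9 were called higher in sh_TMEFF2 with DHT (3.03% of all genes), none lower, and the median was 1.84. Among those not called were the growth factor receptor gene MET (0.97, SE 0.47, adjusted p = 0.192) and UGT2B11 (0.43, SE 0.33, adjusted p = 0.438). The largest changes were in UDP-glucuronosyltransferases of subfamily 2B, which attach glucuronic acid to steroids and so inactivate DHT. UGT2B15 (chr4:68646597-68670652, minus strand) was at 20.1, 17.1 and 17.6 CPM in sh_scramble and at 521, 248 and 151 CPM in sh_TMEFF2 (4.07, SE 0.46, adjusted p = 8.1e-05). UGT2B17 was at 24.1, 14.9 and 22.4 CPM against 501, 263 and 178 CPM (3.94, SE 0.39, adjusted p = 2.53e-05). The sh_TMEFF2 libraries differed several-fold among themselves for both genes, and all lay above sh_scramble. UGT2B10 was at 1.72, 1.95 and 1.70 CPM against 15.6, 11.6 and 10.0 CPM (2.79, SE 0.26, adjusted p = 1.98e-05). These genes are close copies of each other, so reads may be shared between them. All 3 were also higher without DHT (UGT2B15 2.6, UGT2B17 1.89 and UGT2B10 2.49, adjusted p = 0.0143, 0.0258 and 0.000614). UGT2B11 was higher in sh_TMEFF2 without DHT (2.51, adjusted p = 0.00776), and the difference of its fold changes was −2.08 (adjusted p = 0.0318).

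Of the other androgen-repressed genes only DDC was also called without DHT (0.60, adjusted p = 0.0316). DDC, which makes dopamine and serotonin from their amino acid precursors, was at 35.5, 38.6 and 33.9 CPM against 195, 163 and 166 CPM (2.28, SE 0.12, adjusted p = 5.02e-07), with a difference of the fold changes of 1.68 (adjusted p = 0.000192). CAMK2N1, an inhibitor of calcium/calmodulin-dependent kinase II, was at 53.5, 53.7 and 50.3 CPM against 179.5, 155 and 161 CPM (1.65, SE 0.09, adjusted p = 5.02e-07). SI, the intestinal disaccharidase sucrase-isomaltase, was at 2.17, 2.49 and 3.55 CPM against 23.4, 15.7 and 16.3 CPM (2.75, SE 0.21, adjusted p = 5.04e-06). Its −DHT levels were 27.4 and 30.2 CPM, above those of both lines with DHT. BCHE, a plasma cholinesterase, changed by 1.88 (SE 0.23, adjusted p = 0.000136), the kappa opioid receptor gene OPRK1 by 1.80 (SE 0.38, adjusted p = 0.00696) and the chemokine receptor gene ACKR3 by 1.52 (SE 0.21, adjusted p = 0.000316).

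The highest fold changes of the table, among genes whose lines did not overlap and whose higher group averaged 5 CPM or more, included some with limits of measurement. SDK2, a cell adhesion protein, led with 5.06 (SE 1.15, adjusted p = 0.00993), from 4, 7 and 1 counts in the sh_scramble libraries to 220, 109 and 120 in sh_TMEFF2. The counts came almost wholly from 1 of the 2 deposited columns of each sh_TMEFF2 library (1 and 218, 3 and 107, and 118 and 2). KCNH3, a voltage-gated potassium channel that MCRS1 overlaps on the other strand, had 213 and 5, 17 and 9, and 144 and 7 counts in the paired columns, and its change of 3.40 (SE 0.75, adjusted p = 0.00861) turned to −0.18 (adjusted p = 0.937) when only the second column was used. Of the 467 genes called higher, 10 (2.14%) had such columns, with at least 20 counts in one and 8 times as many as in the other of a library with DHT, against 1.36% of all tested genes. Among the 577 called lower it was 9 (1.56%), SLC38A4 among them. The cause was not tested.

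The other leading genes had no such columns. ABCA1, which exports cholesterol from cells (chr9:104781006-104928155, minus strand), was at 0.656, 0.635 and 0.55 CPM in sh_scramble and 13.1, 10.2 and 6.05 CPM in sh_TMEFF2 (3.98, SE 0.38, adjusted p = 2.01e-05). MAN1A1, a mannosidase that trims N-glycans in the Golgi, changed by 3.18 (SE 0.36, adjusted p = 8.25e-05). GLUD2, a glutamate dehydrogenase copied from GLUD1 by retroposition, so that reads of both may mix, changed by 2.56 (SE 0.31, adjusted p = 0.00014). MID1, a microtubule-associated ubiquitin ligase, changed by 2.52 (SE 0.37, adjusted p = 0.000572) and ZPLD1, a zona pellucida-like protein, by 2.48 (SE 0.24, adjusted p = 2.46e-05). The proglucagon gene GCG, at 1.36, 1.03 and 0.30 against 9.63, 4.61 and 2.00 CPM (2.59, SE 0.72, adjusted p = 0.0288), was not called when any of the 3 sh_scramble libraries or sh_TMEFF2 replicate 1 with DHT was left out, or with the first column alone.

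Several genes at the other end were low in both lines without DHT. CCDC141, a coiled-coil protein whose gene overlaps TTN on the same strand, was at 12.8, 17.3 and 15.3 CPM in sh_scramble and 0.602, 0.822 and 0.623 CPM in sh_TMEFF2 (−4.46, SE 0.29, adjusted p = 1.66e-06). AKAP12, a scaffold of protein kinases A and C, was at 11.3, 24.8 and 56.8 CPM against 1.02, 1.05 and 3.25 CPM (−4.12, SE 0.75, adjusted p = 0.00269). Its sh_scramble libraries covered a 5-fold range, with none near sh_TMEFF2. CHRNA2, a nicotinic acetylcholine receptor subunit, was at 72.2, 64.3 and 62.4 CPM against 6.85, 12.1 and 10.7 CPM (−2.75, SE 0.20, adjusted p = 2.84e-06). The plasma acute phase proteins ORM1 and ORM2, neighbouring copies on chromosome 9 between which reads may be shared, changed by −3.30 (SE 0.30) and −3.29 (SE 0.57), with 1 sh_TMEFF2 library of ORM2 at 1 count. SLC38A4, an amino acid transporter, changed by −3.09 (SE 0.45, adjusted p = 0.000537), the laminin chain LAMA1 by −2.61 (SE 0.28, adjusted p = 4.67e-05) and CSGALNACT1, which starts chondroitin sulphate chains, by −2.56 (SE 0.18, adjusted p = 2.08e-06).

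The smallest p-values belonged to genes with tight libraries. SLC41A1, a magnesium carrier of the plasma membrane, was at 327, 339.9 and 279.6 CPM against 67.8, 56.3 and 70.1 CPM (−2.28, SE 0.11, adjusted p = 4.27e-07). PLPP1, a lipid phosphate phosphatase, was at 434, 423 and 411 CPM against 147, 151 and 163 CPM (−1.46, SE 0.07, adjusted p = 4.27e-07). ST7, a suppressor of tumorigenicity gene with many antisense and overlapping transcripts, was higher at 31.1, 33.7 and 32.8 CPM against 88.1, 86.3 and 84.0 CPM (1.40, SE 0.08, adjusted p = 6.55e-07), and it was higher without DHT too (0.60, adjusted p = 0.00327). CBWD1, a zinc chaperone with several near-identical copies in the genome, changed by −1.39 (SE 0.08, adjusted p = 5.23e-07) and MBOAT2, a lysophospholipid acyltransferase, by −1.52 (SE 0.09, adjusted p = 9.01e-07).

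Genes of protein folding in the endoplasmic reticulum (ER) were lower as a group. Of 28 genes of the unfolded protein response and ER folding, all tested, all had a negative fold change with DHT, 20 were called lower (3.74% of all genes) and the median was −0.81. Without DHT none was called and the median was −0.13, and 19 had a lower fold change with DHT than without by the test of the difference. Among 11 chaperones 10 were called. HSPA5, the main Hsp70 chaperone of the ER, was at 1730.3, 1077 and 1452 CPM against 755, 631 and 517 CPM (−1.16, SE 0.18, adjusted p = 0.000717). Its sh_scramble libraries were widely spread and all lay above sh_TMEFF2. HSP90B1, the ER form of Hsp90, was at 3483, 2272 and 3142 CPM against 1573, 1297 and 1353 CPM (−1.07, SE 0.15, adjusted p = 0.000305). DNAJB9, a cochaperone of HSPA5, was at 55.8, 39.1 and 45.5 CPM against 17.3, 17.0 and 16.7 CPM (−1.46, SE 0.13, adjusted p = 1.2e-05). In replicate 2 of sh_scramble all of these 3 genes were at their lowest of the group.

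Of the disulfide isomerases and oxidases 4 of 6 were called, and of the degradation factors 5 of 7. PDIA3, which forms disulfide bonds in glycoproteins, was at 1542, 1240.4 and 1425 CPM against 675, 680.1 and 803 CPM (−0.96, SE 0.09, adjusted p = 1.59e-05). The cochaperone DNAJC3 changed by −1.05 (SE 0.09) and EDEM1, which selects misfolded glycoproteins for degradation, by −0.80 (SE 0.07). HERPUD1, of the same degradation pathway, changed by −1.17 (SE 0.17, adjusted p = 0.000427). Among the 4 sensors and transcription factors of the response 1 was called. The sensor gene ERN1, which encodes IRE1, was called (−0.81, SE 0.13, adjusted p = 0.00134). The factor XBP1 (−0.38, SE 0.07, adjusted p = 0.00345) and the sensor ATF6 (−0.19, SE 0.06, adjusted p = 0.0404) passed the adjusted p but not the fold limit. EIF2AK3, which encodes PERK, did not pass (−0.18, SE 0.17, adjusted p = 0.543).

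The ER stress element is the sequence that ATF6 and its partner NF-Y read in promoters of ER chaperones, and it is shown because several of the lowered chaperones hold it. The letters searched on both strands were CCAAT and CCACG, 9 bases apart, which include the CCAAT box. They occurred in 15 of 11010 tested genes with a promoter in the RefSeq table (0.136%), in 8 of 427 called lower (1.87%), in 0 of 333 called higher and in 7 of 25 genes of the ER list (28%). The windows below give the matched letters in capitals with 5 bases on either side, in the direction of the gene (GRCh38.p14).
HSPA5, chr9:125241386-125241414, minus strand: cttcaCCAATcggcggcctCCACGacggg
HSP90B1, chr12:103930211-103930239, plus strand: cctgaCCAATcggaaggagCCACGcttcg
HSP90B1, chr12:103930316-103930344, plus strand: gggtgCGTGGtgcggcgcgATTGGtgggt
CRELD2, chr22:49918549-49918577, plus strand: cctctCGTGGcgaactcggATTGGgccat
FICD, chr12:108515118-108515146, plus strand: aacaaCCAATgggagtggcCCACGgcgcg
SERP1, chr3:150546705-150546733, minus strand: tcatgCGTGGagacagcgaATTGGtgttt
CALR, chr19:12938379-12938407, plus strand: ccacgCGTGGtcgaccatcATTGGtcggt
ERO1B, chr1:236282178-236282206, minus strand: gcccgCGTGGtcccgcctcATTGGccgcc
TMEM120A, chr7:75994675-75994703, minus strand: gggggCGTGGcctttccccATTGGtgccc
The log2 fold changes of these 8 genes were −1.16 for HSPA5, −1.07 for HSP90B1, −1.31 for CRELD2, −1.27 for FICD, −0.72 for SERP1, −0.64 for CALR, −0.88 for ERO1B and −0.63 for TMEM120A. HSP90B1 holds the element on each strand. The windows of CRELD2 and SERP1 lie between divergent genes and are also counted for ALG12 (−0.22, adjusted p = 0.409) and EIF2A (−0.05, adjusted p = 0.690), neither of which was called. CANX, XBP1 and TRIM5 hold the element and passed the adjusted p but not the fold limit (−0.48, −0.38 and −0.42). NLRP4 (0.77, adjusted p = 0.457) and ZNF17 (−0.11, adjusted p = 0.685) hold it too and did not pass. The shares were not tested, and a match is a description of letters only.

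The next list held the translocon, the signal peptidase, the COPI and COPII coats, cargo receptors and secretory transcription factors. Of its 45 genes 43 had a negative fold change with DHT, 17 were called lower (3.74% of all genes) and none higher. The median was −0.45 against 0.04 without DHT. Translocon and signal peptidase genes gave 7 of 14 calls. SPCS3, a signal peptidase subunit, was at 242 ± 10.4 against 124 ± 9.35 CPM (SD, n = 3; −0.97, SE 0.09, adjusted p = 1.28e-05), and SEC61G, a subunit of the translocon channel, at 134, 137 and 124 CPM against 77.5, 74.9 and 78.0 CPM (−0.78, SE 0.06, adjusted p = 7.14e-06). SEC11C, a catalytic peptidase subunit, changed by −0.91 (SE 0.08, adjusted p = 1.07e-05). Of the cargo receptors 6 of 9 were called, but of the COPII coat only SEC24D (−1.44, SE 0.14, adjusted p = 2.59e-05) and of the COPI coat only COPG1 (−0.59, SE 0.07, adjusted p = 5.98e-05). CREB3L4, a membrane-bound transcription factor of secretory cells, was at 199, 188 and 174 CPM against 95.0, 99.1 and 101 CPM (−0.93, SE 0.06, adjusted p = 1.86e-06).

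Part of the lipid synthesis genes were called lower with DHT. Of 26 tested genes of cholesterol synthesis and its control 10 were called lower (3.74% of all genes) and none higher, with a median of −0.60 against −0.07 without DHT. HMGCS1, which makes the precursor of mevalonate, was at 472, 547 and 528 CPM against 165, 212 and 198 CPM (−1.43, SE 0.13, adjusted p = 1.84e-05). SQLE, the squalene epoxidase, changed by −0.83 (SE 0.08, adjusted p = 3.11e-05), SC5D, a desaturase of the late pathway, by −0.61 (SE 0.08), and INSIG1, which holds the regulator SCAP in the ER, by −1.05 (SE 0.19, adjusted p = 0.00231). The 2 positive values of the list, of INSIG2 (0.54) and TM7SF2 (0.01), were below the fold limit.

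In fatty acid metabolism 9 of 32 tested genes were called lower and 1 higher, against 3.74% and 3.03% of all genes, and the median was −0.33. The lower calls were 3 of 7 genes of synthesis, 4 of 8 of desaturation and elongation, 1 of 8 of activation and storage and 1 of 9 of oxidation. FASN, the fatty acid synthase, was at 2391, 2399 and 2805 CPM against 1097, 1550.4 and 1244 CPM (−0.97, SE 0.12, adjusted p = 0.000218). ELOVL5, an elongase of polyunsaturated fatty acids, was at 1100.4, 1101 and 1045 CPM against 464, 564 and 556 CPM (−1.04, SE 0.07, adjusted p = 1.7e-06). ECI2, an auxiliary enzyme of beta-oxidation, changed by −0.68 (SE 0.07), and ACLY, which makes cytosolic acetyl-CoA, by −0.60 (SE 0.06), just past the fold limit. The acyl-CoA synthetases split. ACSL3 was lower, as given above, while ACSL5, at 0.454, 0.732 and 0.40 CPM against 1.71, 1.05 and 1.38 CPM, was called higher from low levels (1.37, SE 0.35, adjusted p = 0.0177).

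Few cell cycle genes were called, although most had small positive values. The S phase and G2/M lists hold some genes that the study picked on these libraries, so their direction is not wholly independent of these data. Of 43 S phase genes 39 had a positive fold change, 2 (4.65%) were called higher, near the 3.03% of all genes, none was called lower, and the median was 0.40. Of 54 G2/M genes 53 were positive, 4 (7.41%) were called higher against the same 3.03%, a count that fell to 1 when either of 2 libraries was left out, none was called lower, and the median was 0.43 with DHT and −0.11 without. The libraries of sh_TMEFF2 all lay above those of sh_scramble for 31 of the 43 and 22 of the 54, against 15.5% of all genes. HELLS, a chromatin remodeller of replicating cells, was at 28.2, 33.5 and 30.8 CPM against 50.7, 47.6 and 58.0 CPM (0.76, SE 0.10, adjusted p = 0.000347), with a difference of the fold changes of 0.75 (SE 0.15, adjusted p = 0.0132). CHAF1B, a subunit of the histone loader at replication forks, changed by 0.59 (SE 0.10, adjusted p = 0.00148). CDK1, the kinase that starts mitosis, was at 202, 270.5 and 216 CPM against 320.4, 349 and 370.2 CPM (0.60, SE 0.12, adjusted p = 0.00448). The mitotic motors KIF2C (0.76, SE 0.17, adjusted p = 0.0092) and KIF23 (0.68, SE 0.17, adjusted p = 0.0151) and the mitotic kinase gene AURKB (0.64, SE 0.17, adjusted p = 0.0219) were the other G2/M calls.

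The G2/M count depended on single libraries. Without sh_scramble +DHT replicate 1 or sh_TMEFF2 +DHT replicate 3 it was 1, and without sh_scramble +DHT replicate 2 or sh_TMEFF2 +DHT replicate 1 it was 18 and 16. With library size alone it was 11. In G2/M genes the median of a sh_TMEFF2 library against the sh_scramble mean ranged from 0.18 to 0.635. The S phase count was 1 without sh_scramble +DHT replicate 1, 6 without sh_scramble +DHT replicate 2 and 4 without sh_TMEFF2 +DHT replicate 1 or 2. The hexamer TTTGAA (or TTCAAA), the core of the cell cycle homology region through which the DREAM complex binds late cell cycle promoters, was in 30 of 44 G2/M promoters in the table (68.2%), in 9.72% of all tested genes and in 13.8% of those called higher. Of the 4 called genes CDK1 and KIF23 hold it, 161 and 55 bases before their starts.
CDK1, chr10:60778165-60778180, plus strand: ataaaTTTGAActgtg
KIF23, chr15:69414289-69414304, plus strand: gcccgTTTGAAatgcg
Of 9 cell cycle genes taken from the study's primer list as read here, which need not be the whole list, 3 were called higher: BUB1B, a spindle checkpoint kinase (0.65, SE 0.14, adjusted p = 0.00823), CENPI, a centromere protein (0.59, SE 0.16, adjusted p = 0.0225), and NCAPG, a condensin subunit (0.68, SE 0.19, adjusted p = 0.0292). The study chose these genes in part on the same cells, so their direction is not independent evidence. It chose them by their rise with DHT in the knockdown cells as compared with control cells, a measure other than the comparison of the lines with DHT. By the test of the difference, 3 of the 9 had a higher fold change with DHT than without, against 1.65% of all genes. That test measures nearly what the genes were chosen by, so this count is not independent evidence either. BUB1B overlaps the read-through transcript BUB1B-PAK6. Here too the count of primer genes called higher with DHT followed single libraries. Leaving out sh_scramble +DHT replicate 1 or sh_TMEFF2 +DHT replicate 3 gave 0, and leaving out sh_scramble +DHT replicate 3 gave 1. It was 5 without sh_scramble +DHT replicate 2 or sh_TMEFF2 +DHT replicate 1.

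**Figure D4:**
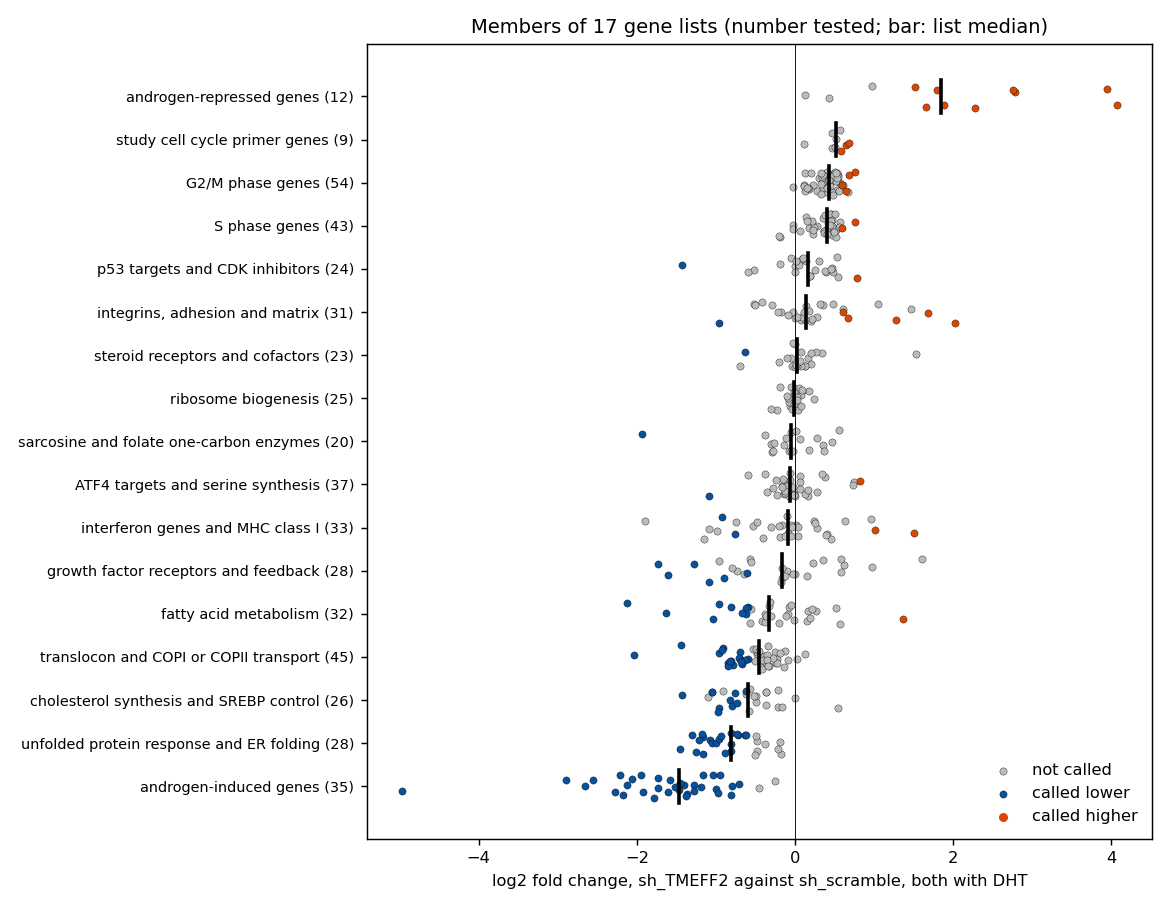
Each point is a tested member of a gene list, placed by its log2 fold change, sh_TMEFF2 against sh_scramble with DHT, and the bar is the list's median. Androgen-induced genes lie farthest to the left with a median of −1.46 and androgen-repressed genes farthest to the right with 1.84; the cell cycle lists lie narrowly to the right of 0, and ribosome biogenesis lies at 0.

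Other lists held few calls, against 3.03% of all genes called higher and 3.74% lower. Ribosome biogenesis had none of 25 in edgeR and a median of −0.01. Of 37 targets of ATF4, the factor of the integrated stress response, SLC7A5, a leucine transporter, was called higher (0.82, SE 0.13, adjusted p = 0.000888) and VLDLR, a lipoprotein receptor, lower (−1.08, SE 0.14, adjusted p = 0.000168). Among 33 tested interferon and antigen presentation genes B2M, the light chain of MHC class I, was lower at 418, 429.5 and 391 CPM against 186, 223 and 246 CPM (−0.92, SE 0.10, adjusted p = 6.34e-05). The antiviral genes OAS3 (1.01, SE 0.27, adjusted p = 0.0223) and IFITM2 (−0.76, SE 0.20, adjusted p = 0.02) went opposite ways, and NLRC5, the transactivator of MHC class I genes, was higher (1.5, SE 0.37, adjusted p = 0.0149). Without sh_TMEFF2 +DHT replicate 3, and under 3 or 4 other alternatives each, none of OAS3, IFITM2 and NLRC5 was called. Of 24 p53 targets and CDK inhibitors TP53INP1, a stress protein of p53 signalling, was higher (0.78, SE 0.13, adjusted p = 0.00135), while the low gene CDKN1C (−1.43, adjusted p = 0.0485) overlapped between the lines and lost the call in 14 of 20 alternatives.

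Growth factor receptors and feedback genes gave 6 lower calls among 28 tested (3.74% of all genes) and none higher. IGF1R, the receptor of insulin-like growth factor 1, was at 106, 110.2 and 97.2 CPM against 24.8, 31.2 and 37.8 CPM (−1.74, SE 0.18, adjusted p = 3.6e-05), while the −DHT groups stood at 24.3 and 23.9 CPM. ERRFI1, a feedback inhibitor of EGFR, was at 85.0, 114 and 92.7 CPM against 39.6, 40.3 and 40.8 CPM (−1.27, SE 0.10, adjusted p = 4.83e-06), and DUSP4, a phosphatase of ERK, changed by −1.61 (SE 0.22, adjusted p = 0.000353). VEGFA, the vascular growth factor, changed by −0.90 (SE 0.18, adjusted p = 0.00537). Of 31 tested integrin, adhesion and matrix genes 5 were called higher and 1 lower, against 3.03% and 3.74% of all genes. Fibronectin (FN1) was at 249.9, 185 and 159 CPM against 618, 501 and 321 CPM (1.28, SE 0.27, adjusted p = 0.00656), the collagen chain COL5A2 changed by 2.02 (SE 0.40, adjusted p = 0.00458) and P-cadherin (CDH3) by 1.68 (SE 0.23, adjusted p = 0.000352). The laminin chain LAMC1 was the lower one, at 846, 791 and 570.3 CPM against 308, 456 and 366 CPM (−0.97, SE 0.16, adjusted p = 0.00135). Of 20 tested enzymes of sarcosine and folate metabolism, a pathway in which TMEFF2 has been studied, GNMT was called. GNMT, which makes sarcosine from glycine, was at 41.0, 46.3 and 44.6 CPM against 8.15, 13.5 and 12.9 CPM (−1.93, SE 0.15, adjusted p = 6.86e-06).

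The comparison with the −DHT libraries shows where the difference between the lines itself differed with the hormone. Of the 467 genes called higher with DHT 25 were also called higher without it, which is 5.35% of the former and 54.3% of the 46, and of the 577 called lower 23 were also called lower, 3.99% of these and 54.8% of the 42. The shares of the 46 and the 42 rest on the counts that moved with the method and with single libraries. The direct test of the difference, with DHT minus without, called 254 genes higher (1.65%) and 507 lower (3.29%), 4.94% together, on the adjusted p alone. Of the genes called with DHT 142 of the higher (30.4%) and 284 of the lower (49.2%) were called in the same direction by that test. The other called genes are not shown to depend on DHT. Among the lists the difference was lower for 27 of 35 androgen-induced genes, 19 of 28 genes of ER folding and 10 of 26 cholesterol genes. It was also lower for 29 of 45 genes of the translocon, coats, cargo receptors and secretory transcription factors. A higher difference was found for 7 of 12 androgen-repressed genes. For UGT2B10 the fold change was 2.79 with and 2.49 without DHT, and the difference of 0.30 (SE 0.36, adjusted p = 0.75) did not pass the test, like those of KLK2 and KLK3 above.

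**Figure D5:**
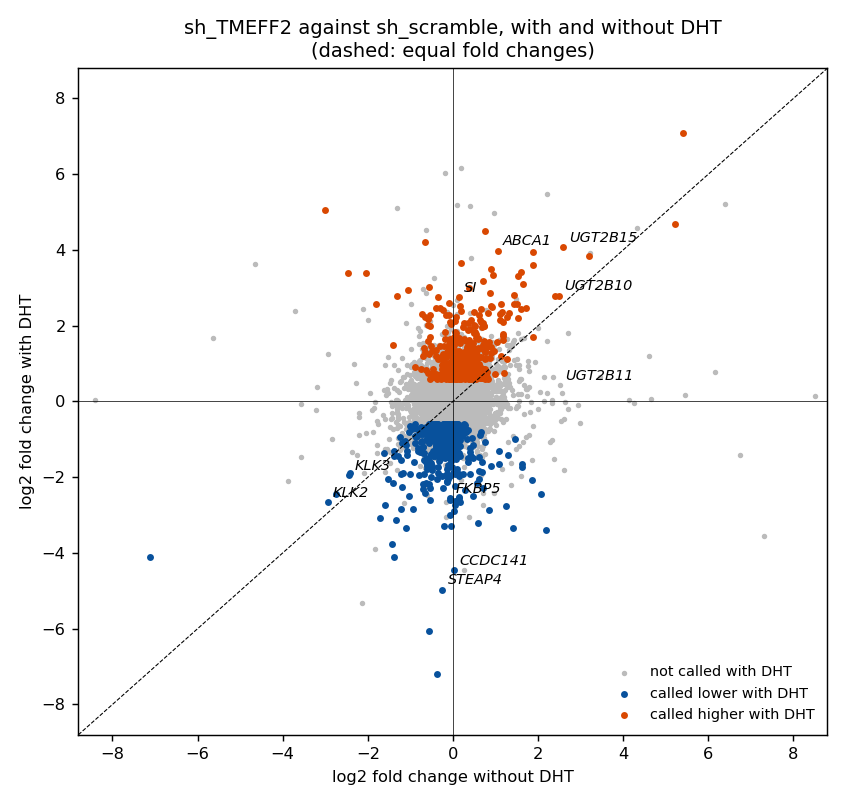
Each point is a gene, with the log2 fold change of sh_TMEFF2 against sh_scramble without DHT on the horizontal axis and with DHT on the vertical axis, and the dashed line marks equal values. Most called genes lie near 0 without DHT, as STEAP4, FKBP5 and SI do, while KLK2, KLK3 and UGT2B10 lie near the line.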

How the data were processed

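RNA was sequenced from 12 LNCaP libraries in 4 groups of 3, and the groups were taken from the labels. The authors deposited expected counts per gene: they checked reads with FastQC, filtered contaminants, trimmed with Trimmomatic to at least 15 bases, quantified with kallisto 0.42.3 (GRCh38) and summed transcripts with tximport as lengthScaledTPM. Expected counts scaled in this way do not follow which transcript of a gene is used, but genes that share sequence share reads by estimation. The table has 34643 symbols and 24 columns, 2 per library, none unassigned. The 2 columns were taken as repeat runs, which their names do not state, and were summed and rounded. A chi-square over its expectation was 5.73 to 24.5 between the 2 columns of a library. Between 2 libraries of a group it was 13.4 to 30.9, so the ranges overlapped.

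All 12 libraries were fitted in edgeR 4.0.16 (R 4.3.3) with 1 mean per group, TMM factors of 0.9554 to 1.037 and filterByExpr (minimum count 10, minimum total 15), leaving 15419 genes. P-values of the quasi-likelihood test were adjusted by Benjamini-Hochberg over all tested genes and measure the spread between these libraries, whose common biological coefficient of variation was 0.131. At 19450866 counts or more per library, genes under 1 CPM rest on few counts. The procedure was tested on simulated data.

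The comparison, the gene lists and the genes named were chosen with earlier results of these data known. Named genes were TMEFF2, the 12 highest and 12 lowest called genes among those whose lines did not overlap and whose higher group averaged 5 CPM or more, the 10 smallest p, up to 4 called members per list with the smallest p (all where 5 or fewer) and the 5 highest and 5 lowest differences with minus without DHT; members of the androgen lists and others were named after their values were seen, to fill out a list. Alternatives were DESeq2 1.42.0, other scaling, other filters and fold limits, the 6 libraries alone, a replicate block, each library left out, and, chosen after seeing the data, each column alone. Gene positions are from GENCODE on GRCh38 and promoters from RefSeq on GRCh38.p14, matched by symbol for 11010 of the tested genes and 760 of 1044 called. The study's filter on transcripts, a mean above 5 CPM, was used here on genes and only as an alternative (362 higher and 389 lower of 11157 genes), and the study's other assays were not analysed here. Some genes that the rule or the lists hold are not reported here.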

Additional observations from a re-analysis of the deposited data

Results flagged for a closer look

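The difference between the lines was not the same with and without DHT for 761 genes by the test of the difference itself in edgeR, 254 with a higher and 507 with a lower fold change with DHT. Among genes averaging 5 CPM or more in 1 of the 4 groups, the highest differences on the log2 scale were SDK2 at 8.07 (adjusted p = 0.014) and KCNH3 at 5.86 (adjusted p = 0.00562), the 2 genes whose deposited columns disagree within a library, then ABCA1 at 2.93 (adjusted p = 0.00416), NLRC5 at 2.91 (adjusted p = 0.0056) and the adhesion protein gene AMIGO2 at 2.64 (adjusted p = 0.000587). NLRC5 was at 5.31 CPM in sh_scramble and 2.00 CPM in sh_TMEFF2 without DHT, and at 1.12 and 3.20 CPM with it. AMIGO2 was at 0.606, 0.781 and 1.10 CPM in sh_scramble +DHT and 5.28, 4.38 and 3.60 CPM in sh_TMEFF2 +DHT.

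The lowest differences were STEAP4 at −4.72 (adjusted p = 9.5e-05), CCDC141 at −4.50 (adjusted p = 0.00134), ORM1 at −3.09 (adjusted p = 0.0229), HPGD at −2.98 (adjusted p = 0.0107) and MAF at −2.92 (adjusted p = 0.000701). For these 5 genes the −DHT groups were low in both lines, with CCDC141 and ORM1 under 1 CPM. Groups of 3 libraries were not searched for outlying samples.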

How the results depend on the processing

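The calls with DHT were 467 higher and 577 lower. They stayed within 1.5 times under DESeq2, other scaling, other filters, the 6 libraries alone, either column and each library left out. Across these settings they were 333 to 624 higher and 389 to 588 lower. With a library left out they were 333 to 513 higher and 464 to 576 lower. Without sh_scramble +DHT replicate 1 they were 333 and 464, of which 287 and 434 were also called with all libraries. Without a fold limit they were 1068 and 1402, and at 2-fold 218 and 247. The smaller counts moved more. Without DHT, 46 higher and 42 lower became 97 and 83 with DESeq2, 88 and 69 without a filter, 27 and 19 with 6 libraries alone, 20 and 26 with the first column and 27 and 23 with the second, and 14 to 73 and 17 to 44 when a library was left out. The 254 genes with a higher difference became 479 with DESeq2, 169 with the first column, 148 with the second and 127 to 294 when a library was left out, and the 507 with a lower difference 329 to 471. KCNH3 reversed to −0.18 with the second column, and the cause was not tested. Values of named genes kept call and direction in 1572 cases and lost the call in 73. These losses were in CDKN1C (14), ACLY and CENPI (7 each), GCG, IFITM2 and NCAPG (5 each), AURKB, GRHL2, NLRC5, OAS3 and SC5D (4 each), CDK1 (3), BUB1B, CHAF1B and KIF23 (2 each) and CDH3 (1). The settings that most often did so were leaving out sh_scramble +DHT replicate 1 or sh_TMEFF2 +DHT replicate 3 and the second column alone; ACLY, SC5D, CDK1, BUB1B and CHAF1B only fell under the fold limit.

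The labels share replicate numbers across groups. With the replicate number as a block the counts were 525 higher and 607 lower with DHT, 73 and 71 without, and 432 for the higher difference, and CENPI (0.58, adjusted p = 0.021) fell just under the fold limit, leaving 2 calls among the primer genes. Deviations of same-numbered libraries of the 2 DHT groups correlated at 0.016 to 0.0977, and those of differently numbered ones at −0.105 to 0.0138. In this check 6 of 6 libraries correlated best with their own number, narrowly so for sh_scramble replicate 2 (0.016 against 0.0138). Between the −DHT groups this did not hold. There sh_scramble replicate 1 correlated at 0.0582 with its own number and 0.0658 with number 2, and replicate 2 at −0.00172 with its own and 0.0357 with number 3. The replicate numbers are a weak hint of pairing, which the labels do not state, and the main fit left it out. Estimates of genes under 1 CPM and of near-identical copies are limited by depth and shared reads.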

Other observations

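The families below were chosen after values had been seen, all their listed members are counted, and no test was made on them as groups; over all genes 3.03% were called higher and 3.74% lower. Of 5 keratins of simple epithelia 4 were tested. KRT8 was at 1272, 1085 and 1059 CPM in sh_scramble +DHT and 427, 492 and 413 CPM in sh_TMEFF2 +DHT (−1.36, adjusted p = 1.86e-06), its partner KRT18 at 824, 739 and 768 against 334, 363 and 372 CPM (−1.12, adjusted p = 9.01e-07), and KRT19 changed by −1.23 (adjusted p = 0.00505). KRT20, an intestinal keratin at 0.727 and 3.06 CPM on average, changed by 2.06 (adjusted p = 0.00639). Without DHT the lines were at 448 and 492 CPM for KRT8 and at 354 and 341 CPM for KRT18.

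Of 10 polyamine enzymes 3 were called lower, ODC1, which starts polyamine synthesis (−0.80, adjusted p = 5.85e-05), SMS, the spermine synthase (−1.22, adjusted p = 2.64e-06), and SAT1, which acetylates polyamines for export (−1.25, adjusted p = 1.28e-05). SMOX, the spermine oxidase, was at 22.4 ± 31.1 CPM in sh_scramble +DHT (SD, n = 3) and was not called. Of 11 enzymes that supply nucleotide sugars for glycosylation 5 were called lower, among them UAP1 (−1.38, adjusted p = 2.68e-05) and GMPPB (−0.69, adjusted p = 0.000156). Of 7 tested genes of the oxysterol receptors LXR and their targets ABCA1 and ABCG1 (0.86, adjusted p = 0.0362), both cholesterol exporters, were called higher. The other 5, NR1H2, NR1H3, MYLIP, LPCAT3 and SREBF1, lay between −0.17 and 0.40.

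In the UGT2B family 3 of 7 genes were called higher and 1, UGT2B28, lower (−0.99, adjusted p = 0.0261). UGT2B28 was at 0.936 CPM in sh_scramble and 2.6 CPM in sh_TMEFF2 without DHT, and at 18.7 and 9.45 CPM with it, and the difference of its fold changes was −2.45 (adjusted p = 0.00818). Of 8 tested MHC class II genes the peptide loading chains HLA-DMA (−1.19, adjusted p = 0.000136) and HLA-DMB (−1.21, adjusted p = 0.000178) were called lower and HLA-DQB1 higher (0.64, adjusted p = 0.0415).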
